A study of Rattus norvegicus with 12 samples.

Results

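Vgf, Celf3, Padi3 and Steap4 were chosen by their place among the genes whose level differed most between cells given Yap siRNA and cells given Wwtr1 siRNA. They are 4 of the 12271 genes listed, and all 4 were among the 11871 genes tested. The cells were cultured cardiac fibroblasts from Sprague Dawley rats of postnatal day 2, and RNA was sequenced from 3 libraries per group. The groups received negative siRNA, Yap siRNA, Wwtr1 siRNA, or Yap and Wwtr1 siRNA together (the double knockdown), and per the labels all cells were collected 48 hours after transfection, whereas the study's methods count those hours from a later change of medium. An siRNA is a short double-stranded RNA through which messenger RNA of matching sequence is degraded, and a pair of them was used per target, each at 25 nM. In the labels, the siRNA entry of the double knockdown lists the Wwtr1 siRNAs alone, although the sample titles give both targets. The total siRNA given in the double knockdown was not stated in the sources used here, so its amount and the depletion of both genes cannot be told apart. The design text of the series calls the cells myocytes, but the series title, the labels and the study call them fibroblasts. Per the study, separate litters gave the biological replicates.

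Yap (gene symbol Yap1) and its paralog Wwtr1, also called Taz, are transcriptional coactivators held in check by the Hippo kinases. They do not bind DNA themselves and reach their target genes mainly through TEAD transcription factors, and in the injured heart they are known for their part in fibroblast activation and matrix production. Vgf encodes a secreted granin-like protein of dense core vesicles that is cut into neuropeptides. Celf3 belongs to the CELF family of RNA-binding proteins, which control splicing, and is best known from neurons. Padi3 encodes a peptidylarginine deiminase, an enzyme that converts arginine in proteins to citrulline, and is best known from skin and hair follicles. Steap4 encodes a membrane metalloreductase of iron and copper that is best known from adipose tissue and inflammation.

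Levels are the deposited normalized counts, which are read counts divided by 1 size factor per library, and library totals ran from 33.9 to 41.1 M reads. Yap1 was 532, 576 and 625 normalized counts after Yap siRNA and 713, 739 and 1474 in the double knockdown, all below the lowest negative siRNA library at 2984. Wwtr1 was 524, 550 and 637 after its own siRNA alone, and the double knockdown libraries had 818, 731 and 1056, all below the lowest negative siRNA library at 2280. Both targets were thus less depleted in the double knockdown than in the matching single knockdown, and least in double knockdown replicate 3. That library also stood apart over all genes, with a chi-square per gene of 120 and 124 against its replicates, where every other pair of replicates had 19.7 to 49.7. Deviations of same-numbered libraries correlated over 0.1 in all 9 pairs among negative, Yap and Wwtr1 siRNA. With the double knockdown 1 of 9 pairs did. Whether the double knockdown cells came from the same litters was not stated, and the part of litter or batch in their values was not tested. All 10 fibroblast markers were listed, and their summed level was 3522245 to 3685308 normalized counts after Yap siRNA, above the 2792687 to 3288329 of negative siRNA and the 2816140 to 3028981 after Wwtr1 siRNA. In the double knockdown it was 2583687, 2726187 and 3782241. The collagen genes Col1a1, Col1a2 and Col3a1 made up most of each sum, and the list's median log2 difference from negative siRNA was 0.11 in the double knockdown, 0.28 after Wwtr1 siRNA and 0.36 after Yap siRNA. The part of these differences in the values of the 4 genes was not tested. Of 12 interferon-induced genes 11 were tested, and all 11 rose in each knockdown group against negative siRNA. Their median log2 difference was 6.42 in the double knockdown, 5.05 after Wwtr1 siRNA and 5.03 after Yap siRNA, whereas the median of all genes was 0.00 in each. The part of this rise in the values of the 4 genes was not tested.

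**Figure D1:**
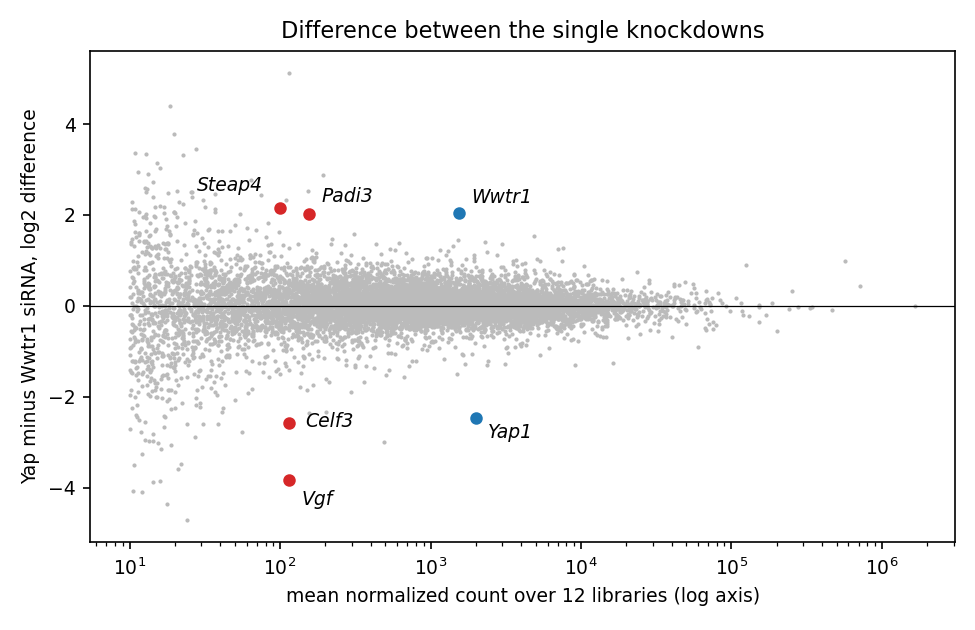
Log2 difference between Yap and Wwtr1 siRNA (vertical axis) against the mean normalized count over 12 libraries (horizontal log axis) for the 11871 genes tested, 1 grey point per gene. Steap4 and Padi3 lie above 2 and Celf3 and Vgf below -2 (red), at levels where most genes are near 0, and the targeted genes Yap1 and Wwtr1 are in blue.

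The difference between Yap and Wwtr1 siRNA chose the 4 genes, so it is given as a description without a test. On the log2(normalized count + 1) scale it was -3.84 for Vgf and -2.57 for Celf3, which were lower after Yap siRNA, and 2.15 for Steap4 and 2.02 for Padi3, which were higher after Yap siRNA. Over all 11871 genes tested, Vgf was in place 7 and Celf3 in place 28 of the 6004 genes on the side higher after Wwtr1 siRNA. Steap4 was in place 36 and Padi3 in place 48 of the 5865 genes on the other side. Among the 10102 genes that averaged at least 100 normalized counts, the places were 1, 3, 5 and 7, but Vgf (115), Celf3 (114) and Steap4 (100.2) reached that mean through the groups in which they were high. The genes beside Vgf and Celf3 in that shorter order were Mfsd14a at -3.00, the targeted gene Yap1 at -2.46 and Tac3 at -2.35. Beside Steap4 and Padi3 were Myl7 at 2.32, the targeted gene Wwtr1 at 2.03 and Stap2 at 1.58. The Yap siRNA libraries did not overlap the Wwtr1 siRNA libraries for any of the 4 genes, nor for 31.9% of all genes tested, and since this difference chose the genes nothing is read from it. The share of all genes with a group apart from every other group was not counted, so such separations given below are descriptions alone.

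**Figure D2:**
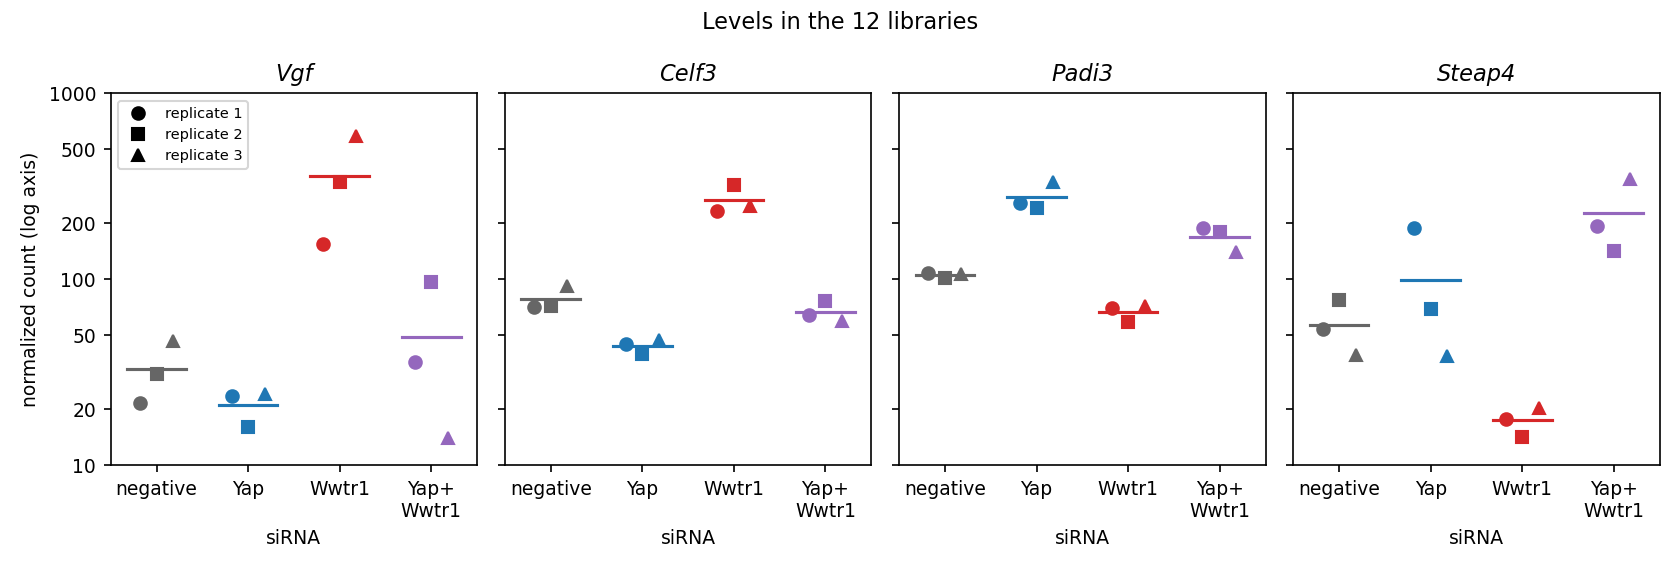
Normalized counts (vertical log axis) of the 4 genes by siRNA group, with 1 point per library, its shape giving the replicate number, and a line at the mean of the 3 libraries. The Wwtr1 siRNA libraries of Vgf and Celf3 lie above all others, those of Padi3 and Steap4 lie below all others, and the double knockdown lies away from them in all 4 panels.

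Vgf was highest after Wwtr1 siRNA alone and overlapped negative siRNA when Yap was depleted as well. It was 21.5, 31.0 and 46.5 normalized counts after negative siRNA, and 154, 334 and 587 after Wwtr1 siRNA. It was 23.6, 16.1 and 24.1 after Yap siRNA, and 35.8, 97.0 and 14.0 in the double knockdown. All 3 Wwtr1 siRNA libraries were thus above the other 9, whereas negative siRNA, Yap siRNA and double knockdown libraries overlapped. The mean after Wwtr1 siRNA was 10.9 times that after negative siRNA and 7.32 times that in the double knockdown. The next steps down, from the double knockdown (48.9 ± 43.0, SD, n = 3) to negative siRNA (33.0 ± 12.6) and to Yap siRNA (21.2 ± 4.49), were within the spread of the libraries. Within replicate numbers, Wwtr1 siRNA was 7.17, 10.8 and 12.6 times negative siRNA, and Yap siRNA was 1.09, 0.518 and 0.518 times. The fewest reads behind a Vgf value were 15, in Yap siRNA replicate 2, for which counting error alone is 25.8%, so differences among the low libraries are imprecise.

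The window around the Vgf transcription start held the one match found among 4 motifs searched in the 4 genes, a cyclic AMP response element. RefSeq places the window, 250 bases before to 50 bases after the start, at chr12:25276971-25277270 on the minus strand of assembly GRCr8. The element is shown in capitals, 90 bases before the start.

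Vgf: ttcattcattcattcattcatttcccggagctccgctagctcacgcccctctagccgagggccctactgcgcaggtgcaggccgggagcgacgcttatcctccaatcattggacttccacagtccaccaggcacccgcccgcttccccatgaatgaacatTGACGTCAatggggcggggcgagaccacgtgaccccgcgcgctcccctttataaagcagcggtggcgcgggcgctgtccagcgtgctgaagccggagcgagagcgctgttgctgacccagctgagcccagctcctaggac

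The motifs were that element (TGACGTCA), the TEAD motif (CATTCC), the AP-1 motif (TGANTCA) and an interferon element (GAAANNGAA), each searched on both strands. The single match overlapped no other motif. Of 33469 RefSeq windows of this length, 1.83% held the cyclic AMP element, 14.2% the TEAD motif, 7.33% the AP-1 motif and 9.71% the interferon element. The other gene that was highest after Wwtr1 siRNA, Celf3, held no exact match to these motifs in its window at chr2:184804841-184805140 on the plus strand. Near matches to the cyclic AMP element, such as TGACATCA and TGATGTCA in that window, were not counted. The window is printed for comparison with that of Vgf.

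Celf3: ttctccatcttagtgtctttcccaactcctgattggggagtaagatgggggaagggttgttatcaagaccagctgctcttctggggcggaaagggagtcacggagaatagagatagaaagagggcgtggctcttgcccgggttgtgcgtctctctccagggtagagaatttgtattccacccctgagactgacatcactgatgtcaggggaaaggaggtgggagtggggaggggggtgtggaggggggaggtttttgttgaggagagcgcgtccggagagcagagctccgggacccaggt

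No match was found either in the windows of Padi3 (chr5:158400144-158400443, minus strand) and Steap4 (chr4:27054720-27055019, minus strand). The windows were 55.0% to 62.7% G and C, highest for Vgf, and the median of all windows was 51.7%. Matches and their absence are descriptions of letters in a short window of another assembly than rn6, the build to which the reads were aligned.

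Celf3 was higher after Wwtr1 siRNA and lower after Yap siRNA than after negative siRNA. It was 70.8, 72.0 and 92.0 normalized counts after negative siRNA, and 234, 321 and 247 after Wwtr1 siRNA. It was 45.1, 39.6 and 47.1 after Yap siRNA, and 64.6, 76.1 and 59.7 in the double knockdown. The Wwtr1 siRNA libraries were above all others, the Yap siRNA libraries were below all others, and the double knockdown overlapped negative siRNA. The mean after Wwtr1 siRNA was 3.42 times that after negative siRNA and 4.0 times that in the double knockdown. After Yap siRNA the mean was 43.8% below negative siRNA, and the double knockdown was 1.52 times Yap siRNA. All 3 replicate numbers had both directions, since Wwtr1 siRNA was at 3.30, 4.47 and 2.68 times and Yap siRNA at 0.637, 0.551 and 0.512 times negative siRNA. The standard deviation was 8.83% of the mean after Yap siRNA and 17.7% after Wwtr1 siRNA, and Celf3 rested on 37 to 315 reads per library.

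Padi3 had the reverse pattern, with the Yap siRNA libraries highest and the Wwtr1 siRNA libraries lowest. It was 109, 102 and 107 normalized counts after negative siRNA, and 256, 241 and 334 after Yap siRNA. It was 69.9, 59.2 and 72.1 after Wwtr1 siRNA, whereas the double knockdown libraries had 190, 180 and 140. The 4 groups did not overlap at any step, and their order was Yap siRNA, double knockdown, negative siRNA and Wwtr1 siRNA. Each step down was of like size, with ratios of means of 1.63, 1.60 and 1.58. Yap siRNA was 2.36, 2.36 and 3.11 times negative siRNA in replicates 1, 2 and 3, and Wwtr1 siRNA was 0.643, 0.581 and 0.671 times. Padi3 rested on 58 to 319 reads per library, a counting error of 13.1% to 5.60%.

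Steap4, unlike Padi3, was split mainly by its low level after Wwtr1 siRNA. It was 54.4, 78.0 and 39.3 normalized counts after negative siRNA, and 17.7, 14.3 and 20.3 after Wwtr1 siRNA. It was 190, 69.6 and 38.8 after Yap siRNA, and 194, 141 and 345 in the double knockdown. The Wwtr1 siRNA libraries were below the other 9 libraries, with a mean 69.5% below negative siRNA. After Yap siRNA replicate 1 alone was high, at 3.48 times negative siRNA of the same number, and replicates 2 and 3 were 0.893 and 0.987 times, so these groups overlapped. The double knockdown mean was the highest, 3.96 times negative siRNA with no overlap and 2.28 times Yap siRNA with overlap. The lowest Steap4 value rested on 14 reads, a counting error of 26.7%.

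**Figure D3:**
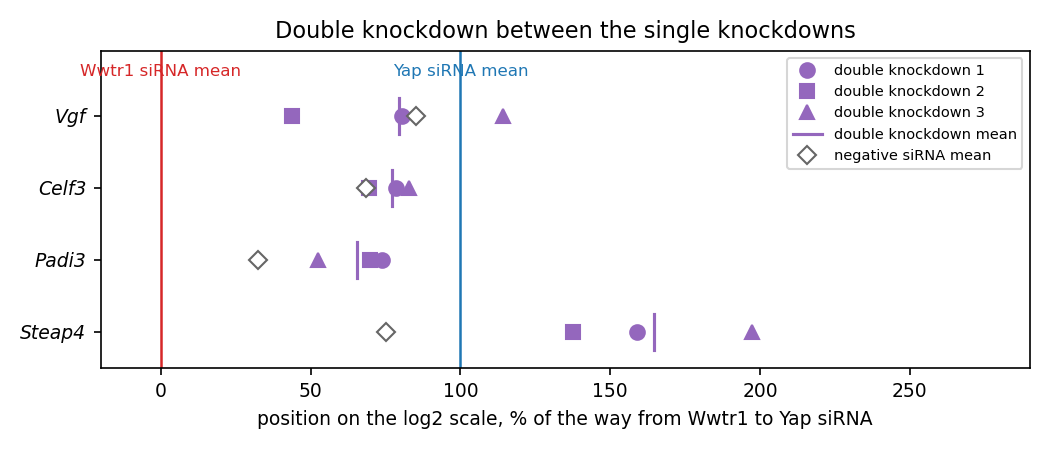
Position of the 3 double knockdown libraries (purple points) and their mean (purple line) on the log2 scale, as a percentage of the way from the Wwtr1 siRNA mean (0, red) to the Yap siRNA mean (100, blue), with the negative siRNA mean as an open diamond. The means lie at 65.4 to 79.4 for Padi3, Celf3 and Vgf and at 165 for Steap4.

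In the double knockdown all 4 genes lay nearer to Yap siRNA than to Wwtr1 siRNA. Expressed as a percentage of the way from the Wwtr1 siRNA mean to the Yap siRNA mean on the log2 scale, the double knockdown was at 79.4 ± 35.3 (SD, n = 3) for Vgf and at 77 ± 6.86 for Celf3. It was at 65.4 ± 11.4 for Padi3 and at 165 ± 30.2 for Steap4, which was past the Yap siRNA mean. Single libraries ran from 69.5 to 83.0 for Celf3, from 52.4 to 73.9 for Padi3 and from 138 to 197 for Steap4. Of the 12 values, the one under 50 was Vgf in double knockdown replicate 2, at 43.7. Negative siRNA itself lay at 85.2 for Vgf, 68.4 for Celf3, 32.6 for Padi3 and 75.2 for Steap4. For Vgf, Celf3 and Steap4 negative siRNA was thus also nearer to Yap siRNA, and for Padi3 it was nearer to Wwtr1 siRNA. The Steap4 value moved to 230.5 without Yap siRNA replicate 1 and to 133 without Yap siRNA replicate 3. As log2 differences, the double knockdown minus Yap siRNA was 0.79, 0.59, -0.70 and 1.39 for Vgf, Celf3, Padi3 and Steap4. The double knockdown minus Wwtr1 siRNA was larger in size for each, at -3.05, -1.98, 1.32 and 3.54. These differences use the groups that chose the genes and were not tested. The weaker depletion of both targets in the double knockdown stands beside them, as does that group's lack of pairing by replicate number.

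The 4 comparisons that do not use the difference between Yap and Wwtr1 siRNA were tested with limma over all genes, with Benjamini-Hochberg adjustment and a threshold of 0.05. Against negative siRNA, 2 of the 4 genes rose in the double knockdown, where 32.8% of all genes tested passed in either direction, so that 2 calls are not a result about these genes as a set. Steap4 rose by a log2 difference of 1.92 (SE 0.51, limma adjusted p 0.0138), and Padi3 rose by 0.66 (SE 0.19, limma adjusted p 0.0170). Both were higher than every negative siRNA library in 3 of 3 double knockdown libraries, as were 23.1% of all genes tested. Vgf at 0.22 (SE 0.63, limma adjusted p 0.820) and Celf3 at -0.22 (SE 0.21, limma adjusted p 0.452) did not pass. Their 95% confidence intervals ran from -1.16 to 1.60 and from -0.68 to 0.24. The Steap4 call was lost without negative siRNA replicate 3 (limma adjusted p 0.0584), and the Padi3 call was lost without double knockdown replicate 1 (0.0624) or 2 (0.0561). Without double knockdown replicate 3, the library that stood apart, Steap4 was 1.57 (limma adjusted p 0.0445) and Padi3 0.80 (limma adjusted p 0.00874). The replicate numbers did not pair the double knockdown with the other groups, and the part of litter or batch in these calls was not tested.

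**Figure D4:**
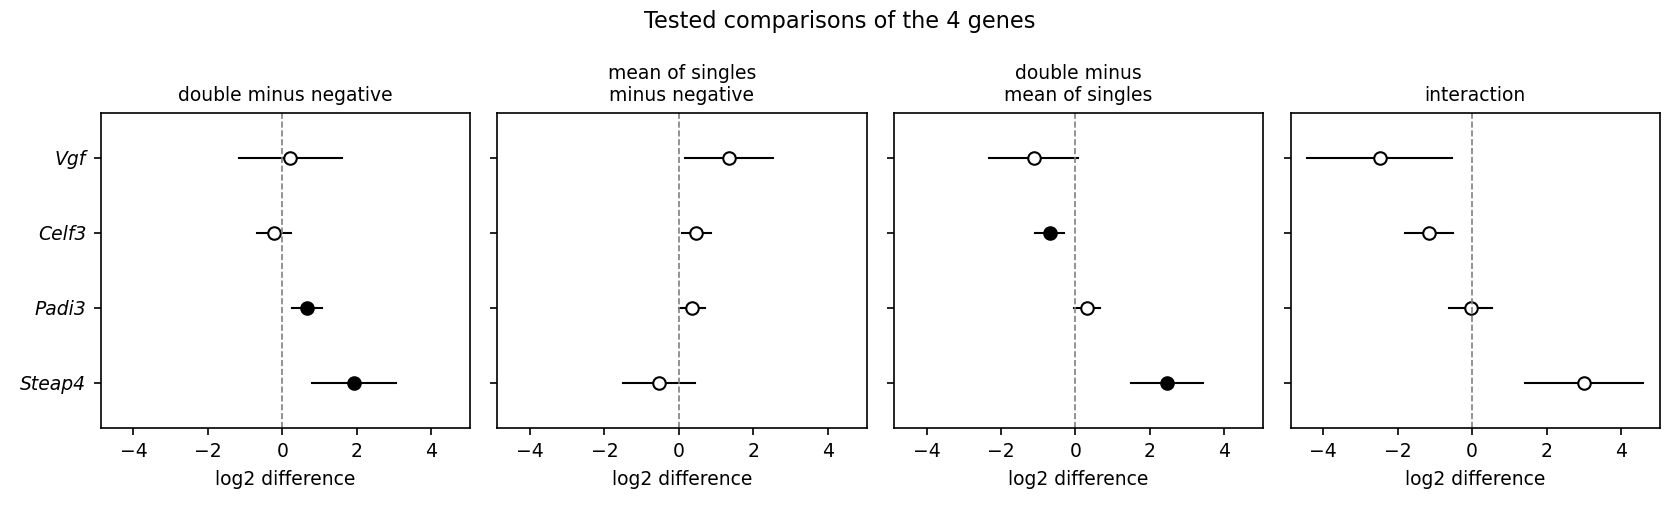
Log2 differences (horizontal axes) of the 4 genes in the 4 tested comparisons, with 95% confidence intervals from limma as lines and filled points where the adjusted p was under 0.05. Padi3 and Steap4 are filled for the double knockdown against negative siRNA, Celf3 and Steap4 are filled against the mean of the single knockdowns, and none is filled in the other panels.

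The double knockdown was next set against the mean of the single knockdowns, which asks on which side of their midpoint it fell. Of the 4 genes 2 passed, where 18.9% of all genes did. That mean uses the libraries that chose the genes, so 2 calls are not a result about these genes as a set. Celf3 was lower in the double knockdown than that mean, at -0.69 (SE 0.18, limma adjusted p 0.0215), and Steap4 was higher, at 2.46 (SE 0.45, limma adjusted p 0.00310). Both of these lay on the side of Yap siRNA. Vgf at -1.13 (SE 0.55, limma adjusted p 0.174) and Padi3 at 0.31 (SE 0.16, limma adjusted p 0.201) had the sign of that side and did not pass. The Celf3 call was lost without Wwtr1 siRNA replicate 2 (limma adjusted p 0.0535) or double knockdown replicate 1 (0.0641) or 3 (0.0619, at -0.62). Vgf passed without double knockdown replicate 2 (-1.82, limma adjusted p 0.0413) and was -0.46 without double knockdown replicate 3 (limma adjusted p 0.556), so 1 library decides its value. Without double knockdown replicate 3, Steap4 was 2.11 (limma adjusted p 0.0131) and Padi3 was 0.44 (limma adjusted p 0.0976).

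The mean of the single knockdowns was also set against negative siRNA. The estimates of the single knockdowns had opposite signs for all 4 genes, at -0.57 after Yap siRNA and 3.27 after Wwtr1 siRNA for Vgf, so this mean gives the balance of the arms and not a response that both share. No member passed in limma, nor with edgeR or DESeq2, against 6.08%, 5.75% and 9.89% of all genes in the same order of tools. An unadjusted p under 0.05 was found for 3 of 4, against 20.5% of all genes. This mean uses the libraries that chose the genes, so no excess is read from that count. The log2 differences were 1.35 (SE 0.55, limma adjusted p 0.184) for Vgf, 0.47 (SE 0.18, limma adjusted p 0.164) for Celf3, 0.35 (SE 0.16, limma adjusted p 0.242) for Padi3 and -0.54 (SE 0.45, limma adjusted p 0.542) for Steap4. The replicate numbers paired the libraries of these 3 groups, and with the number as a replicate block and without the double knockdown libraries Vgf passed at the same difference (limma adjusted p 0.0130), which came from the Wwtr1 siRNA arm.

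The interaction compares the log2 effect of depleting both targets with what the single knockdowns add up to. It was called for none of the 4 genes by limma or edgeR and for 2 of 4 by DESeq2, where 1.03% of all genes passed in limma, 0.859% in edgeR and 4.32% in DESeq2. An unadjusted limma p under 0.05 was found for 3 of 4, against 14.0% of all genes. As the interaction uses the libraries that chose the genes, no excess is read from that count. Steap4 was 3.01 above that sum (SE 0.73, limma adjusted p 0.0715), Celf3 was at -1.17 (SE 0.30, limma adjusted p 0.0883) and Vgf at -2.48 (SE 0.89, limma adjusted p 0.227). Padi3 was at -0.04 (SE 0.26, limma adjusted p 0.964), with a 95% confidence interval from -0.61 to 0.53. With DESeq2 the adjusted p was 0.00757 for Steap4 and 0.0311 for Celf3. Steap4 also passed in limma without Yap siRNA replicate 1 (3.62, limma adjusted p 0.0235), the library with the high Steap4 level. Without double knockdown replicate 3 the limma values were 2.65 (adjusted p 0.112) for Steap4, -1.09 (0.127) for Celf3, -1.81 (0.301) for Vgf and 0.09 (0.913) for Padi3.

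The closest relatives of the 4 genes were examined in the same fit, with each group against negative siRNA. Over all genes, 17.1% rose and 15.6% fell in the double knockdown, 3.02% rose and 1.78% fell after Yap siRNA, and 5.0% rose and 3.96% fell after Wwtr1 siRNA. The counts for single knockdowns come from the fit to all 12 libraries without a block, and since the replicate numbers paired negative, Yap and Wwtr1 siRNA, they are also given from a fit with that replicate block and without the double knockdown libraries where they differ. In that blocked fit 8.92% of all genes rose and 7.12% fell after Yap siRNA, and 11.0% rose and 10.3% fell after Wwtr1 siRNA. Of the 10 granin, CELF, deiminase and STEAP relatives that were listed, Celf2 was the one called in a single knockdown without the block. With the replicate block Scg3, Steap2 and Steap3 were called as well after Wwtr1 siRNA, and Steap2 after Yap siRNA. Relatives not listed were Chga, Chgb, Scg5, Celf6, Padi1, Padi4 and Padi6.

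**Figure D5:**
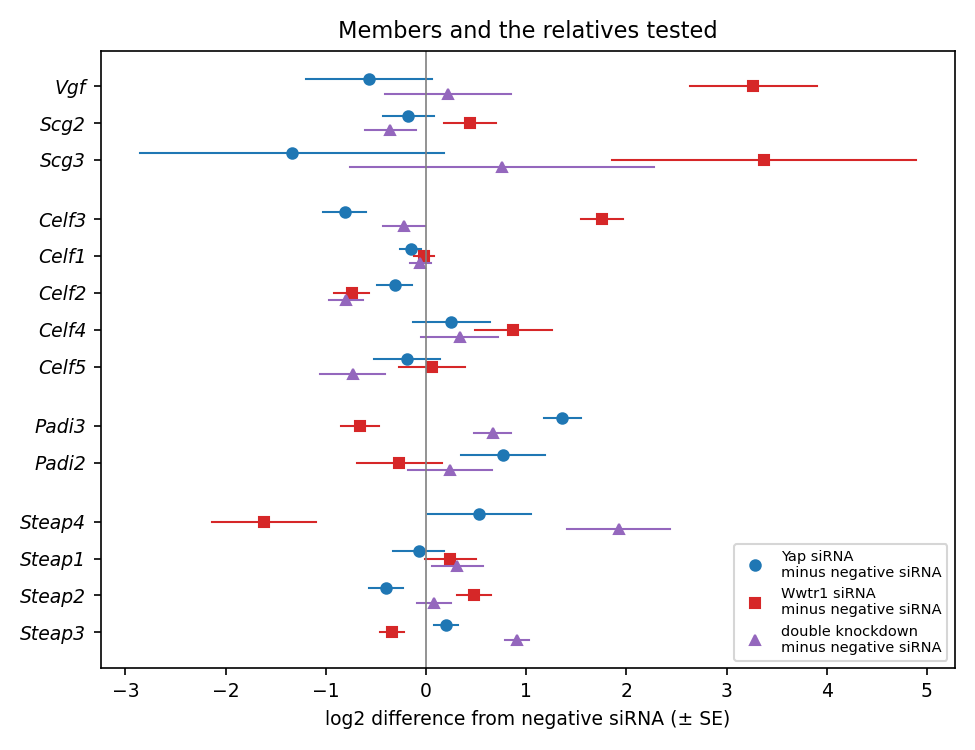
Log2 differences from negative siRNA (horizontal axis, points with SE as lines) for the 4 genes and their listed relatives, for Yap siRNA in blue, Wwtr1 siRNA in red and the double knockdown in purple. Scg3 has a wide error and a Wwtr1 siRNA point near that of Vgf, and the other relatives lie within 1 of 0.

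Of the granin and peptide processing list, 5 of 10 genes were tested and none was called in any of the 3 comparisons without the block. Scg2, which encodes the granin secretogranin II, averaged 616 ± 19.2 normalized counts (SD, n = 3) after Wwtr1 siRNA, against 461 ± 95.3 in the negative siRNA group, 416 ± 133 after Yap siRNA and 365 ± 101 in the double knockdown. Scg3, which encodes secretogranin III, ran from 32.3 to 84.3 normalized counts after Wwtr1 siRNA, from 0.0 to 15.5 in the negative siRNA group, from 0.0 to 10.5 after Yap siRNA and from 0.0 to 44.3 in the double knockdown. The Wwtr1 siRNA libraries of Scg3 did not overlap those of negative or Yap siRNA, and its log2 difference from negative siRNA of 3.37 (SE 1.52, limma adjusted p 0.202) did not pass. With the replicate block Scg3 passed (SE 0.99, limma adjusted p 0.0354), as did Cpe, which encodes a carboxypeptidase of prohormone processing, and no gene of the list was called after Yap siRNA. The list median was -0.02 after Yap siRNA, 0.28 after Wwtr1 siRNA and -0.05 in the double knockdown.

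Of the CELF and neural RNA-binding list, 11 of 15 genes were tested. None rose, and 1 fell after Yap siRNA, 1 after Wwtr1 siRNA and 2 in the double knockdown. In the blocked fit 1 gene also rose in each single knockdown, the splicing factor gene Rbfox1. Celf2, a widely expressed CELF protein, fell by 0.74 on the log2 scale after Wwtr1 siRNA (SE 0.17, limma adjusted p 0.0206) and by 0.80 with both targets depleted (SE 0.17, limma adjusted p 0.00443), opposite in sign to Celf3 after Wwtr1 siRNA. After Yap siRNA Celf2 was at -0.31 (SE 0.17, limma adjusted p 0.358). Mbnl2, a muscleblind splicing factor, fell by 0.41 after Yap siRNA (SE 0.07, limma adjusted p 0.0104) and by 0.24 with both depleted (SE 0.07, limma adjusted p 0.0258). Celf1, Celf4 and Celf5 were not called in any comparison, and Celf4 had the largest value among them after Wwtr1 siRNA, 0.87 (SE 0.38, limma adjusted p 0.192). The list median was -0.11 after Yap siRNA, 0.06 after Wwtr1 siRNA and -0.06 in the double knockdown.

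Of the list of peptidylarginine deiminases and their substrates, 5 of 12 genes were tested. None was called in a single knockdown, and 2 fell in the double knockdown, Krt14 and Vim. Both also fell in each single knockdown with the replicate block. Krt14, a keratin of basal epithelium, was 113 ± 26.0 normalized counts after negative siRNA and 6.47 ± 8.35 in the double knockdown, a log2 difference of -4.73 (SE 0.76, limma adjusted p 0.000715). Vim, the fibroblast intermediate filament protein vimentin and a known deiminase substrate, fell by 0.74 (SE 0.11, limma adjusted p 0.000420). Padi2 was the one other deiminase listed. It averaged 71.3 ± 40.3 after Yap siRNA, 45.8 ± 17.1 in the double knockdown, 37.4 ± 7.15 in the negative siRNA group and 30.8 ± 4.07 after Wwtr1 siRNA, an order of means like that of Padi3, and it was not called after Yap siRNA (0.77, SE 0.42, limma adjusted p 0.348). The list median was -0.23 after Yap siRNA, -0.26 after Wwtr1 siRNA and -0.04 in the double knockdown.

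Of the list of STEAP reductases and metal handling genes, all 12 were tested, and 7 rose and 1 fell in the double knockdown. Cp, which encodes the ferroxidase ceruloplasmin, rose by 1.88 (SE 0.15, limma adjusted p 1.10e-05), Hmox1, the heme-degrading enzyme heme oxygenase 1, by 1.65 (SE 0.13, limma adjusted p 9.76e-06) and Slc39a14, a zinc and iron importer, by 1.64 (SE 0.13, limma adjusted p 1.05e-05). Steap3, an endosomal ferrireductase, was 956 ± 62.1 normalized counts after negative siRNA and 1812 ± 282 in the double knockdown, a rise of 0.91 (SE 0.12, limma adjusted p 0.000176). After Wwtr1 siRNA Steap3 was 755 ± 63.2 and after Yap siRNA 1102 ± 88.3, neither of which passed (limma adjusted p 0.102 and 0.378; with the replicate block 0.0167 and 0.132), and its order of group means was that of Steap4. Tfrc, the transferrin receptor, fell by 0.32 (SE 0.09, limma adjusted p 0.0180). After Yap siRNA 1 gene of the list rose and after Wwtr1 siRNA 2 rose, Hmox1 in both, at 0.89 (SE 0.13, limma adjusted p 0.00459) and 1.03 (SE 0.13, limma adjusted p 0.000941). In the blocked fit 5 rose and 1 fell in each single knockdown. Steap1 was not called. Steap2, another STEAP metalloreductase, was called with that block alone, at -0.40 after Yap siRNA (SE 0.11, limma adjusted p 0.0401) and 0.48 after Wwtr1 siRNA (SE 0.11, limma adjusted p 0.0134), signs opposite to those of Steap4. The list median was 0.21 after Yap siRNA, 0.18 after Wwtr1 siRNA and 0.37 in the double knockdown.

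Genes of the pathways to which the 4 genes are commonly assigned were counted next. Of 15 cyclic AMP and growth factor response genes, the class to which Vgf belongs, 8 rose in the double knockdown, 3 after Wwtr1 siRNA and 1 after Yap siRNA, and none fell. Nr4a1, an immediate early nuclear receptor, had the largest rise in each, at 2.17 (SE 0.19, limma adjusted p 1.66e-05), 1.12 (SE 0.19, limma adjusted p 0.00400) and 0.74 (SE 0.19, limma adjusted p 0.0466). The blocked fit called 4 higher after Wwtr1 siRNA and 2 after Yap siRNA. The list median was 0.54 in the double knockdown, 0.16 after Wwtr1 siRNA and 0.11 after Yap siRNA.

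Of 15 inflammatory response genes 14 were tested. In the double knockdown 8 rose and none fell, with a list median of 0.87, and Il6 had the largest rise at 3.99 (SE 1.02, limma adjusted p 0.0107), from 11.8 ± 10.3 to 114 ± 28.3 normalized counts. Lcn2, which encodes an acute phase protein that binds iron carriers, rose by 2.94 (SE 0.57, limma adjusted p 0.00216). After Yap siRNA none was called and the list median was 0.14. After Wwtr1 siRNA 1 rose, Lif at 0.92 (SE 0.24, limma adjusted p 0.0353), and 1 fell, Stat3 at -0.22 (SE 0.06, limma adjusted p 0.0421), and the list median was -0.29.

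Of 12 direct Yap targets 11 were tested. After Yap siRNA 7 fell, after Wwtr1 siRNA 1 fell and in the double knockdown 8 fell, and none rose. With the replicate block 8 fell after Yap siRNA, and after Wwtr1 siRNA 6 fell and 1 rose, the receptor gene Axl. The list medians were -0.55, -0.28 and -1.33. Ccn2, which encodes connective tissue growth factor, fell by 1.85 with both targets depleted (SE 0.19, limma adjusted p 3.93e-05). Tgfb2, a transforming growth factor, fell by 0.92 after Yap siRNA (SE 0.22, limma adjusted p 0.0387), and Ankrd1, a cardiac ankyrin repeat protein, fell by 0.79 after Wwtr1 siRNA (SE 0.14, limma adjusted p 0.00530).

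Of the 10 fibroblast markers, 1 rose after Yap siRNA and none was called after Wwtr1 siRNA without the block. The blocked fit called 5 higher after Yap siRNA, and 4 higher and 3 lower after Wwtr1 siRNA. In the double knockdown, where Steap4 and Padi3 rose, 4 rose (Dcn by 2.01, Pdgfra by 1.76, Lum by 1.47 and Postn by 0.72) and Col1a2 and Tcf21 fell, by 0.43 and 0.42. Markers of other cell types were measured because Celf3 and Vgf are best known from neurons, and because fewer cells of a type and less RNA per cell cannot be told apart in bulk samples. Of 12 neuron and Schwann cell markers 9 were listed, and Snap25, Stmn2 and Th were not listed. Their summed level was 9501 to 11235 normalized counts in the negative siRNA group, 8992 to 10759 after Yap siRNA, 6347 to 8538 after Wwtr1 siRNA and 4971 to 6026 in the double knockdown. Tubb3, a tubulin, made up most of that sum and fell after Wwtr1 siRNA (-0.72, SE 0.15, limma adjusted p 0.0108), from 7627 ± 568 to 4650 ± 753 normalized counts (SD, n = 3). Uchl1, the next most abundant, was 2438 ± 299 and 2512 ± 259 in the same groups. Of the 8 tested, 1 fell after Wwtr1 siRNA and 1, Prph, rose after Yap siRNA. Outside the list, the neuronal genes Tac3, Rundc3a and Syn1 ranked near Vgf and Celf3, at -2.35, -2.33 and -1.84 for Yap minus Wwtr1 siRNA. They were picked from the top of that order. The part of neurons and Schwann cells in the Vgf and Celf3 values was not tested. Of 10 pericyte and smooth muscle markers 9 were listed, and their sum was highest after Wwtr1 siRNA (144398 to 153663) and lowest after Yap siRNA (93178 to 99644), with 116927 to 118557 for negative siRNA and 97677 to 123427 in the double knockdown. Pdgfrb, a growth factor receptor, made up most of that sum. Without the block, 1 of the 9 rose after Wwtr1 siRNA, Pdgfrb at 0.40 (SE 0.10, limma adjusted p 0.0335), and 1 fell after Yap siRNA, the receptor gene Notch3 at -0.72 (SE 0.15, limma adjusted p 0.0225). With the replicate block 3 rose after Wwtr1 siRNA, and 2 fell and 1 rose after Yap siRNA. The list medians were near 0, at -0.00 after Wwtr1 siRNA and -0.08 after Yap siRNA, and other members had the reverse signs, such as Kcnj8 at -0.25 and 0.59. In the double knockdown 3 rose, Abcc9 at 1.91, Kcnj8 at 1.86 and Rgs5 at 0.97. In that group 2 fell, Mcam at -1.25 and Notch3 at -0.81, and the list median was 0.44. The part of pericytes and smooth muscle cells in the values of the 4 genes was not tested either. The sum of 10 macrophage markers, all listed, was 22272 to 32326 in the negative siRNA group, 19137 to 28516 after Yap siRNA and 11830 to 19905 after Wwtr1 siRNA. In the double knockdown it was 7073, 13985 and 48222 in replicates 1, 2 and 3. Replicate 3, which stood apart over all genes, had both the highest sum and the highest Steap4 value. Replicate 1 had the lowest sum but a higher Steap4 value (194) than replicate 2 (141). No macrophage marker was called in a single knockdown without the block, and with the replicate block 7 of 10 fell after Wwtr1 siRNA and 2 after Yap siRNA. The part of macrophages in the Steap4 values was not tested. Of 7 adipocyte markers 2 were listed, Fabp4 and Pparg. Their sum was 199 to 335 in the negative siRNA group, 255 to 344 after Yap siRNA and 376 to 392 after Wwtr1 siRNA. It was 309, 360 and 1055 in double knockdown replicates 1, 2 and 3. The highest sum was in the library with the highest Steap4 value, but replicate 1 was below replicate 2 in sum and above it in Steap4. Pparg, a nuclear receptor of fat cell differentiation, rose after Wwtr1 siRNA by 1.37 (SE 0.28, limma adjusted p 0.0108), where Steap4 was lowest, and the part of these markers was not tested. The sum of 8 cardiomyocyte markers was 79014, 78669 and 48163 after Yap siRNA and 67531, 80225 and 43529 after Wwtr1 siRNA, so that its direction differed between replicate numbers. None of the 8 was called in a single knockdown without the block, whereas the blocked fit called 3 higher after Yap siRNA, and 5 higher and 1 lower after Wwtr1 siRNA. In the double knockdown 3 of the 8 rose, with a list median of 0.62, and Myh6, a cardiac myosin heavy chain, rose from 8033 ± 2969 to 26972 ± 1787 normalized counts (1.83, SE 0.35, limma adjusted p 0.00206). The sum of 6 listed mesothelial and epicardial markers was 5831, 4635 and 5133 after Yap siRNA and 4868, 4078 and 4805 after Wwtr1 siRNA, lower in all 3 replicate numbers. The part of these cells in the 4 genes was not tested. The sum of 8 endothelial markers was 1140 to 1489 in the negative siRNA group, 1582 to 1834 after Yap siRNA, 1497 to 1557 after Wwtr1 siRNA and 1702 to 2542 in the double knockdown, where 4 of the 8 rose. It was highest in double knockdown replicate 3, as Steap4 was, and its part in the values of the 4 genes was not tested.

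Genes with a like pattern over the 12 libraries were found by the root mean square distance between log2 levels, each centred on its own mean, among the 10101 other genes that averaged at least 100 normalized counts. Nearest to Vgf was Celf3 itself, at 0.86, followed by Rasgrp2 at 0.93 and Rundc3a at 0.95. Nearest to Celf3 were MGC109340 at 0.40, Rasgrp2 at 0.42 and Scn3b at 0.45. Rasgrp2, an exchange factor for the GTPase Rap1, averaged 606 ± 199 normalized counts after Wwtr1 siRNA, 251 ± 73.2 in the negative siRNA group, 172 ± 66.2 in the double knockdown and 157 ± 6.52 after Yap siRNA. Scn3b, a sodium channel beta subunit, averaged 242 ± 57.9, 108 ± 0.991, 126 ± 20.3 and 68.7 ± 14.8 in the same order of groups. Both had their highest mean after Wwtr1 siRNA and their lowest after Yap siRNA, as Celf3 did. Rundc3a differed, at 435 ± 77.7, 77.7 ± 20.7, 211 ± 95.1 and 88.1 ± 27.9 in that order of groups. Its double knockdown stayed above negative siRNA (1.375, SE 0.338, limma adjusted p 0.00876).

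Nearest to Padi3 were Arhgef19 at 0.40, Hip1r at 0.43 and Fxyd5 at 0.43. Hip1r, which encodes an actin and clathrin binding protein, averaged 671 ± 66.7 normalized counts after Yap siRNA, 596 ± 109 in the double knockdown, 416 ± 25.2 in the negative siRNA group and 361 ± 84.9 after Wwtr1 siRNA, the order of group means of Padi3. Nearest to Steap4 were Lbp at 0.54, Fbln1 at 0.64 and Ccl7 at 0.70. Lbp, which encodes the lipopolysaccharide-binding protein, averaged 3383 ± 2750 normalized counts in the double knockdown, with its highest library at 6545, against 1383 ± 698 after Yap siRNA, 834 ± 266 in the negative siRNA group and 469 ± 60.8 after Wwtr1 siRNA. Ccl7, a monocyte chemokine, had a double knockdown mean of 3666 ± 2243 and a Wwtr1 siRNA mean of 753 ± 75.6. In both, as in Steap4, the double knockdown had the highest mean. These distances use the same 12 libraries that chose the 4 genes and are descriptions without a test.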

How the data were processed

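For the 12 RNA libraries the authors trimmed the reads with Trim Galore 0.6.5, aligned them to rat build rn6 with HISAT2, assembled transcripts with StringTie and normalized with DESeq2. As deposited, each signal value is a read count over the size factor of its library, and 100% of the 147252 values were whole reads within 0.01 of a read. Strand use in counting was not stated. The authors' fold changes, errors and p-values against negative siRNA were not used. Groups came from sample titles.

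limma 3.58.1 in R 4.3.3 was fitted to log2(normalized count + 1), which understates changes of low genes, on all 12 libraries with a trend, for genes with a mean of at least 10. Adjusted p-values are two-sided Benjamini-Hochberg values over 11871 genes. The steps were tested on simulated data. Results were recomputed with a replicate block, without each library, on fewer groups, without the trend, with other filters and pseudocounts (0.1, 10), with upper-quartile or TMM scaling, and on recovered reads with DESeq2 1.42.0 and edgeR 4.0.16. Same-numbered libraries of negative, Yap and Wwtr1 siRNA had correlated deviations (0.104 to 0.276, all 9 pairs over 0.1), so the numbers paired these groups, and those of the double knockdown did not (-0.127 to 0.180).

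The 4 genes and all gene lists were chosen with earlier results of these data known. Named genes were the 4 genes, the targets, close relatives, the list genes with the largest called rise or fall, and the 3 nearest profiles per gene. Genes beside the 4 in rank, cell type markers, Syn1, Slc39a14, Vim, Lcn2, Cpe, Rbfox1 and Axl were named after their values were seen. Symbols matched RefSeq for 11860 of 12271 genes, and promoter windows are from RefSeq assembly GRCr8. A marker gene of one list is not reported here.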

Additional observations from a re-analysis of the deposited data

How the results depend on the processing

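Over the 4 genes, the difference between the single knockdowns and the 4 tested comparisons, 443 of 460 recomputed values kept their direction and their side of the threshold, or moved by less than the spread between replicates. Leaving out 1 library at a time, the double knockdown minus negative siRNA ranged from -0.47 to 0.89 for Vgf (-0.04 without negative siRNA replicate 1 and -0.47 without double knockdown replicate 2), from 0.58 to 0.80 for Padi3 and from 1.57 to 2.21 for Steap4. The double knockdown minus the mean of the single knockdowns ranged from -1.82 to -0.46 for Vgf and from -0.79 to -0.62 for Celf3. Values that were not called moved too. Celf3 in the double knockdown minus negative siRNA, -0.22, ranged from -0.32 to -0.10, nearest 0 without negative siRNA replicate 3 (-0.10) or double knockdown replicate 3 (-0.15). Steap4 in the mean of the single knockdowns, -0.54, ranged from -0.85 without Yap siRNA replicate 1 to -0.28 without Yap siRNA replicate 3, and was -0.29 without negative siRNA replicate 2. The interaction ranged from -0.13 to 0.10 for Padi3, above 0 without Yap siRNA replicate 3 (0.10), Wwtr1 siRNA replicate 3 (0.01) or double knockdown replicate 3 (0.09), and from 2.49 to 3.62 for Steap4. With DESeq2 the interaction passed for Celf3 (-1.17) and Steap4 (2.90). The Celf3 difference between Yap and Wwtr1 siRNA was -2.35 with a pseudocount of 10. With a replicate block and without the double knockdown libraries, Vgf in the mean of the single knockdowns passed (1.35), and no other call on these genes changed with a replicate block.

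Counts of genes called over the whole table varied more. The interaction called 122, 503 with DESeq2, 60 without a trend and 231 with a replicate block, and 31 to 160 with 1 library left out. The mean of the single knockdowns called 722, 1174 with DESeq2, 2074 with a replicate block and without the double knockdown libraries, and 248 to 1051 with 1 library left out. Yap siRNA called 570, 1013 with DESeq2, 294 without a trend, 874 with a replicate block, 1904 with it and without the double knockdown, and 111 to 764 with 1 library left out. Wwtr1 siRNA called 1064, 2527 with that block, and 548 to 1419 with 1 library left out, and the double knockdown against the mean of the singles 2247 and 1466 to 2263. The cause of each change was not tested. Vgf and Steap4 rested on as few as 15 and 14 reads in a library, so their low levels were the least precise.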
